A study of Mus musculus with 26 samples.

Results

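In testis RNA-seq of 3 mouse genotypes, 9 genes were followed for proteins that move potassium, sodium, protons, anions or calcium across membranes, or make cAMP. The group was formed for roles in sperm, and these data do not show which testis cells express each gene. The 9 genes are *Kcnu1*, *Lrrc52*, *Atp1a4*, *Slc9c1*, *Slc9b1*, *Hvcn1*, *Slc26a3*, *Atp2b4* and *Adcy10*. They were chosen by name from the 51124 genes of the deposited table, and all 9 were among the 23782 genes that passed the filter on low values. The mice were adults. The wild-type group gave libraries 1 and 2, the *10xPerf* group libraries 3 and 4, and the *10xBulge* group libraries 5 and 6, each from a different mouse by the labels. Both lines with an insertion were made with CRISPR/Cas9 in B6D2F1/J hybrid embryos and kept as homozygotes. In both, the 3′ UTR of *Ythdc2* holds added sites for a piRNA, piR-A. *Ythdc2* is a gene that germ cells need to enter and pass through meiosis. The sites pair fully with the piRNA in *10xPerf* and carry mismatches opposite the piRNA cleavage position in *10xBulge*. All cells of the animal carry the insertion, and the RNA came from whole testis, a mixture of germ cells and somatic cells. Whether mice of a genotype were littermates is not given in the sources used here, so the p-values measure the spread between these libraries.

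Sperm become able to fertilize through changes in membrane voltage, internal pH, calcium and cAMP. KCNU1, also called SLO3, is the pore of the main sperm potassium channel, and LRRC52 is its auxiliary subunit. ATP1A4 is the sperm form of the catalytic subunit of the Na+/K+-ATPase, which builds the sodium gradient. SLC9C1 is the sperm sodium/proton exchanger with a voltage sensor, SLC9B1 is a related exchanger, and HVCN1 is the voltage-gated proton channel. SLC26A3 exchanges chloride for bicarbonate, ATP2B4 pumps calcium out of the cell, and ADCY10 is the soluble adenylyl cyclase that bicarbonate activates. Most of these proteins act in mature sperm, and several of their mRNAs are made in spermatids, the haploid cells that become sperm.

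The stretch of 30 bases just before the transcription start is shown for 6 of the genes, since it lets genes with unlike fold changes in *10xBulge* be set side by side. Of these 6, *Slc9c1* was not called against wild type, and *Slc26a3* was near the limit of detection, where a difference was not detectable. The sequences are from RefSeq on GRCm38.p6, in the sense of the gene, and 7 of the 9 genes had a promoter in that table (not *Kcnu1* and *Hvcn1*). Capitals mark the TATA box letters TATAAA, which were found in this stretch of *Slc26a3*.
Atp1a4 (chr1:172258425-172258454, reverse strand): gacccagggctgggagcaccaggcctgccc
Lrrc52 (chr1:167466781-167466810, reverse strand): cctgccctgccccacccctcggcagccttc
Adcy10 (chr1:165485153-165485182, forward strand): agggtgtggcctggaaaacggctttttgac
Slc9b1 (chr3:135347999-135348028, forward strand): ctgcttccggtaaatcccagcccagtttcc
Slc9c1 (chr16:45535236-45535265, forward strand): cctctagccagtaggcacatagcaggggcg
Slc26a3 (chr12:31438189-31438218, forward strand): TATAAAgacatctataatacatatggatgc

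In all, 4 motifs were searched on both strands of the 300 bases around each start, 250 before it and 50 from it on. They were the cAMP response element TGACGTCA, its core TGACG (which lies within the full element), the MYB letters CAGTTG, and TATAAA. Over all 32851 promoters of the table, 1.79% held TGACGTCA, 20.8% held TGACG, 13.7% held CAGTTG and 13.6% held TATAAA. *Atp1a4*, *Lrrc52* and *Slc9b1* held none of the letters. The MYB letters were in 3 of the 7 promoters, those of *Adcy10*, *Slc9c1* and *Atp2b4*. In *Adcy10* they began 181 bases before the start, on the other strand, and are in capitals in the stretch below. *Atp2b4*, which was not called in any comparison with the deposited scaling, held the same letters 107 bases before its start, and TGACG on the bases after it.
Adcy10 (chr1:165484990-165485019, forward strand): tttcactctctcCAACTGtctcacatgtcc
Atp2b4 (chr1:133753837-133753866, reverse strand): ccgttcagccacCAACTGtcatttaaaccc
The CpG count of the 300 bases was 1 in *Slc26a3*, 3 in *Slc9c1*, 4 in *Atp2b4*, 5 in *Adcy10*, 6 in *Lrrc52* and *Atp1a4*, and 10 in *Slc9b1*, against a median of 7 over all promoters. No motif searched was common to the 4 of these genes that were lower in *10xBulge* than in wild type. The starts that RefSeq gives for *Slc26a3* and *Atp2b4* lie inside the longer gene spans given below.

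The libraries held about 41.1 to 61.6 M reads each, and 3 reads were worth 2.73 to 3.63 normalized counts. Levels of genes are compared below as normalized counts per kb of the longest protein-coding transcript. Markers of cell types were summed over their lists. The 10 spermatid markers were all lower in *10xBulge* than in wild type, against a background of 23.0% of all genes tested. Their sums were 522400 to 778400 in wild type, 623000 to 686200 in *10xPerf* and 1234 to 2562 in *10xBulge*. None of the 10 spermatocyte markers was called by limma, with sums of 85520 to 114000, 72500 to 75480 and 59230 to 84420. Of these sums, *H1f6* alone gave 32910 to 76520 in wild type, 21900 to 30120 in *10xPerf* and 11840 to 45760 in *10xBulge*. Markers of Sertoli cells (6 of 8 higher), Leydig cells (4 of 6) and macrophages (5 of 6) were higher in *10xBulge*, against a background of 11.4% of all genes tested. The Sertoli calls had limma adjusted p-values of 0.0501 (*Amh*) to 0.0971 (*Clu*), none of them under 0.05. Sertoli sums were 69160 to 70040 in wild type and 115900 to 251500 in *10xBulge*. Much of them was *Clu*, at 48080 and 46740 in wild type and 196100 and 75650 in *10xBulge*. Of the other lists, 1 of 8 spermatogonial markers was higher, and 0 of 4 peritubular and vascular, 0 of 3 tested red blood cell and 0 of 3 tested epididymal markers were called. *Lcn5*, an epididymal marker, was at 0 in all libraries. The genes called below in comparisons with *10xBulge* differed between the same genotypes as these sums, and the part of the cell makeup in each result was not tested. In whole testis, fewer cells of a type and less RNA per cell cannot be told apart.

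In wild type, *Atp1a4* was the most abundant of the 9 genes, at 6830 normalized counts per kb (6600 and 7050 in the libraries). *Adcy10* (mean 2300) and *Slc9b1* (mean 2090) followed, and their libraries overlapped. *Lrrc52* (1160), *Slc9c1* (843), *Kcnu1* (631) and *Atp2b4* (596) came next, and each overlapped its neighbour in this order. The lower library of *Slc9b1*, at 1510, was just above the higher of *Lrrc52*, at 1480. *Hvcn1* (25.6) and *Slc26a3* (2.3) were far below the others, and their libraries did not overlap. In *10xPerf* the order differed in the place of *Slc9c1*, which at 1920 per kb came before *Lrrc52* at 1210. In *10xBulge*, *Atp2b4* (969), *Slc9b1* (959) and *Adcy10* (790) had the highest means per kb, with overlap between *Atp2b4* and both others. *Atp1a4* had a mean of 74.2 per kb there and overlapped *Hvcn1* at 57.8, and *Lrrc52* was at 28.9, above only *Slc26a3* at 3.12. The plot of levels per transcript length shows this order.

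**Figure D1:**
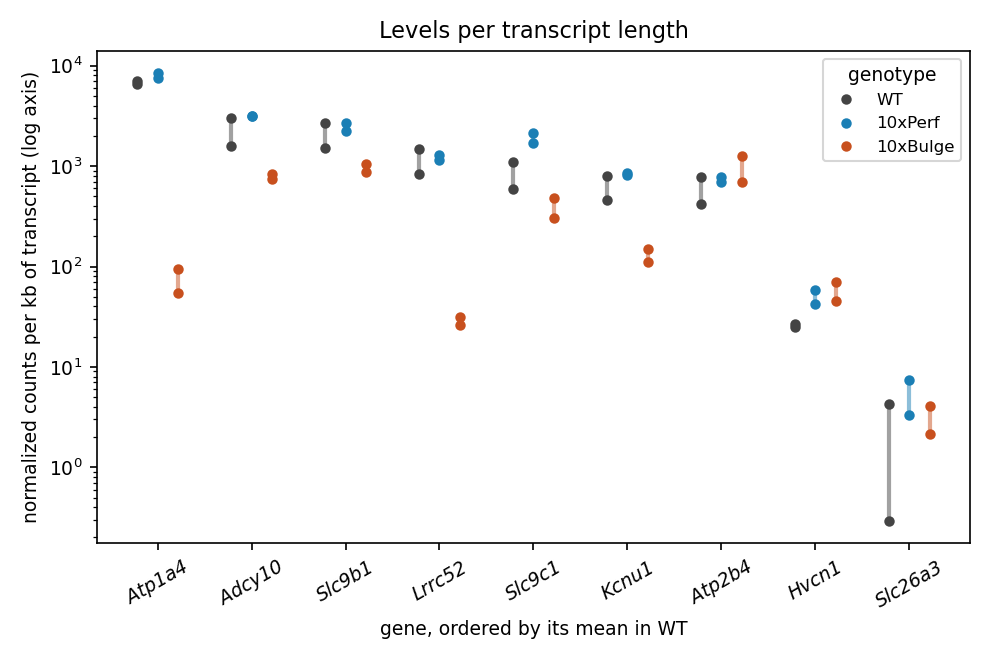
Levels of the 9 genes in normalized counts per kb of the longest protein-coding transcript, on a log axis, ordered by the mean in wild type. Points are libraries, lines join the 2 libraries of a genotype. *Atp1a4* leads in wild type at 6600 and 7050 and lies at 54.7 and 93.7 in *10xBulge*, where *Atp2b4*, *Slc9b1* and *Adcy10* lead.

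The first comparison asked how the 9 genes stood in *10xBulge* against wild type. Of these, *Atp1a4*, *Lrrc52*, *Kcnu1*, *Adcy10* and *Slc9b1* were lower at an adjusted p under 0.1 (limma, Benjamini-Hochberg over all genes), which is 5 of 9 against a background of 23.0% of all genes tested. None was higher by limma, against a background of 11.4%, and 1 of the 9, *Hvcn1*, was higher at an unadjusted p under 0.05. The median log2 fold change was -1.07 over the 9 genes and -0.03 over all genes tested. With scaling to library totals, where the median of all genes was 0.35, 4 of the 9 were lower and 2 higher, and the share of calls that were higher over all genes was 54.7% in place of 33.2%.

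**Figure D2:**
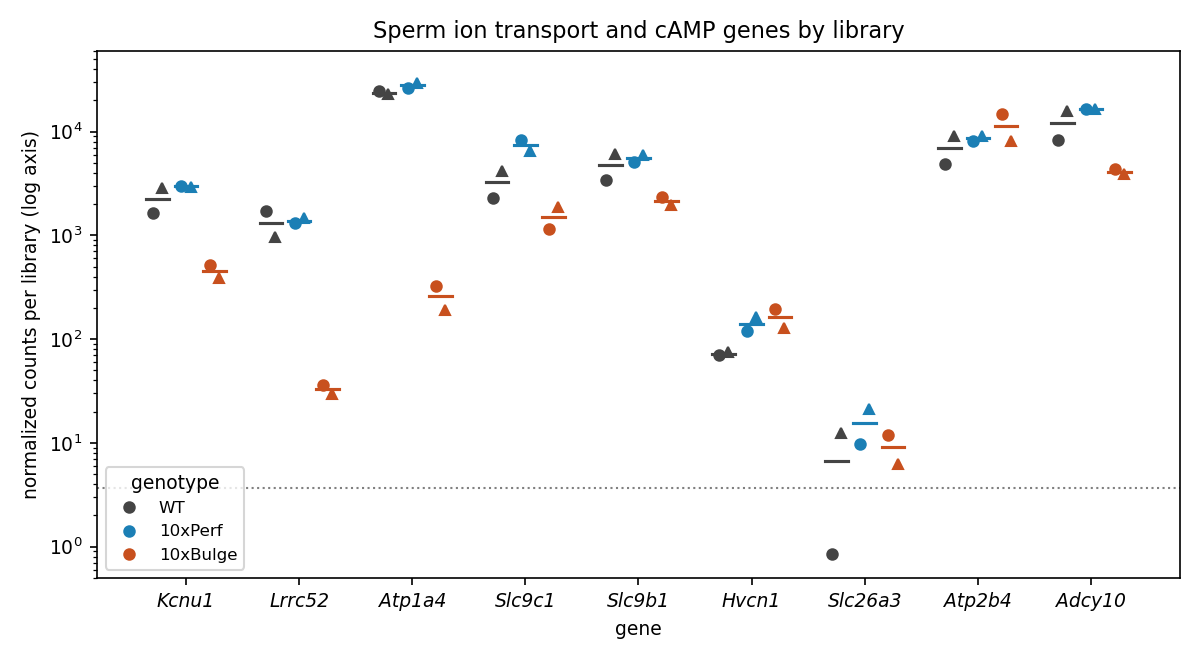
Normalized counts of each gene (log axis) in each library, coloured by genotype, with circles and triangles for the 2 libraries of a genotype and a line at their mean. The dotted line is the worth of 3 reads in the library where it was highest (3.63). The *10xBulge* libraries lie apart from the rest in *Atp1a4*, *Lrrc52* and *Kcnu1*, while the genotypes overlap in *Slc26a3* and *Atp2b4*.

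Both parts of the sperm potassium channel fell in *10xBulge*, the auxiliary subunit more than the pore in these libraries. *Kcnu1* (ENSMUSG00000031576.17), which encodes the pore, lies on chromosome 8 from 25849623 to 25937939 (GRCm38, forward strand). Its normalized counts were 1634 and 2830 for wild type, 3015 and 2902 for *10xPerf*, and 522.4 and 390.7 for *10xBulge*. Both *10xBulge* libraries were below all others, and the wild-type libraries differed from each other by 0.79 on the log2 scale. The log2 fold change of *10xBulge* against wild type was -2.25 ± 0.42 (SE, n = 2 per genotype, limma adjusted p = 0.00367), so that its mean was 20.5% of the wild-type mean.

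*Lrrc52* (ENSMUSG00000040485.6), on chromosome 1 from 167445669 to 167466780 (reverse strand), was at 1696 and 954 in wild type, 1302 and 1466 for *10xPerf*, and 36.1 and 29.86 for *10xBulge*. The libraries of *10xBulge* were far below the lowest of the other genotypes. Its log2 fold change was -5.23 ± 0.43 (SE, limma adjusted p = 2.54e-05), and 2.49% of the wild-type mean was left. Per transcript length, *Lrrc52* was at 3.21 and 1.04 times the level of *Kcnu1* in the wild-type libraries, at 1.34 and 1.56 times in *10xPerf*, and at 0.214 and 0.236 times in *10xBulge*. The ratio did not overlap between *10xBulge* and the other genotypes, and its log2 difference from wild type was -3.03. The two-sided exact permutation test gave p = 0.333, the smallest that 2 libraries against 2 allow.

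*Atp1a4* (ENSMUSG00000007107.7), the sperm form of the sodium pump, had the largest fall among the 9 genes. It lies on chromosome 1 from 172223513 to 172258414 (reverse strand), and was at 24470 and 22920 in wild type, 26430 and 29280 for *10xPerf*, and 325.2 and 189.9 for *10xBulge*. The wild-type libraries lay close to each other and the *10xBulge* libraries were lower by far more than their own spread. The log2 fold change was -6.57 ± 0.41 (SE, 95% confidence interval -7.50 to -5.64, limma adjusted p = 7.54e-06), with 1.09% of the wild-type mean left.

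The genes that move protons had fold changes in both directions, and only 1 of the 3 was called against wild type. *Slc9c1* (ENSMUSG00000033210.17, chromosome 16 from 45535309 to 45607001, forward strand), the voltage-sensing exchanger, was at 2287 and 4181 in wild type, 8192 and 6500 for *10xPerf*, and 1159 and 1862 for *10xBulge*. The 3 genotypes did not overlap, with *10xPerf* highest and *10xBulge* lowest. Against wild type, the log2 fold change in *10xBulge* was -1.07 (95% confidence interval -2.10 to -0.05, limma adjusted p = 0.114), which missed the threshold. It passed without *10xBulge* library 6 (-1.41, adjusted p = 0.0688) and with the GC trend of the libraries removed (-0.88, adjusted p = 0.0666).

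*Slc9b1* (ENSMUSG00000050150.17, chromosome 3 from 135348029 to 135397827, forward strand), the second exchanger, was at 3388 and 6026 in wild type, 5060 and 6001 for *10xPerf*, and 2346 and 1965 for *10xBulge*. The *10xBulge* libraries were the lowest, and wild-type library 1 lay between them and the others. The log2 fold change was -1.07 ± 0.42 (SE, limma adjusted p = 0.0934), and the mean was 45.8% of that of wild type. This call was near the threshold: it was lost without wild-type library 2 (-0.66, adjusted p = 0.31), *10xBulge* library 5 (adjusted p = 0.12) or *10xBulge* library 6 (adjusted p = 0.195), and with library totals (-0.69, adjusted p = 0.194, or -1.04 relative to the median of all genes). It was also lost with the filter relaxed to a value of 1 in 1 library (adjusted p = 0.118), with only the 2 genotypes compared (0.158) and with no mean-variance trend (0.136).

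*Hvcn1* (ENSMUSG00000064267.14, chromosome 5 from 122206804 to 122242297, forward strand), the proton channel, was at 69.55 and 74.27 in wild type, 119.1 and 162.9 for *10xPerf*, and 196 and 128 for *10xBulge*. Both wild-type libraries were below all knock-in libraries, and the knock-in genotypes overlapped. The log2 fold change in *10xBulge* was 1.13 (95% confidence interval 0.10 to 2.16, limma adjusted p = 0.101), which just missed the threshold. It was called at adjusted p-values of 0.0254 to 0.0952 in 6 alternatives, among them library totals (0.0254), the GC trend removed (0.0434) and the fit without *10xBulge* library 6 (0.0696). Exons of *Hvcn1* overlap those of *Tctn1* on the other strand. The libraries were strand-specific, and salmon was set to detect the library type itself. *Hvcn1* is also expressed in immune cells, and the summed macrophage markers were 3305 and 4139 in wild type, 3782 and 5599 for *10xPerf*, and 12690 and 8229 for *10xBulge*. Whether the level of *Hvcn1* depends on these cells was not tested.

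*Adcy10* (ENSMUSG00000026567.17), the soluble adenylyl cyclase, lies on chromosome 1 from 165485183 to 165576774 (forward strand). It was at 8311 and 15620 in wild type, 16390 and 16400 for *10xPerf*, and 4339 and 3889 for *10xBulge*. The *10xBulge* libraries were below all others, while wild-type library 1 was nearer to them than wild-type library 2 was. The log2 fold change was -1.47 ± 0.43 (SE, limma adjusted p = 0.0347), with 34.4% of the wild-type mean left. The call was lost without wild-type library 2 (-1.02, adjusted p = 0.142). Per transcript length, *Adcy10* was at 2.19 and 6 times the sum of the transmembrane adenylyl cyclases in wild type, 7.83 and 5.89 times for *10xPerf*, and 0.733 and 0.819 times for *10xBulge*. The soluble form exceeded the sum of the membrane forms in every wild-type and *10xPerf* library and in no *10xBulge* library (log2 difference from wild type -2.23, exact permutation p = 0.333, the smallest possible). Both parts of this ratio moved. The normalized counts of the membrane forms summed to 4525 and 2964 in wild type, 2327 and 3064 for *10xPerf*, and 6360 and 5186 for *10xBulge*. The part of the cell makeup in this ratio was not tested.

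*Slc26a3* and *Atp2b4* passed no threshold in any comparison with the deposited scaling. *Slc26a3* (ENSMUSG00000001225.13, chromosome 12 from 31390871 to 31473917, forward strand), the anion exchanger, was near the limit of detection in these testes, at 0.8555 and 12.53 in wild type, 9.637 and 21.41 for *10xPerf*, and 11.89 and 6.267 for *10xBulge*. Wild-type library 1 was under the worth of 3 reads, and a difference was not detectable at this depth (log2 fold change in *10xBulge* 0.95, SE 0.99, limma adjusted p = 0.519, and -0.48 without wild-type library 1). *Atp2b4* (ENSMUSG00000026463.18, chromosome 1 from 133699457 to 133801041, reverse strand), the calcium pump, was at 4903 and 9081 in wild type, 8166 and 9115 for *10xPerf*, and 14660 and 8064 for *10xBulge*. The genotypes overlapped, and the spread within wild type (0.89 on the log2 scale) and within *10xBulge* (0.86 in size) was above the fold change of 0.70 (95% confidence interval -0.37 to 1.78, adjusted p = 0.307). With library totals it was called higher (1.09, adjusted p = 0.0784, or 0.74 relative to the median of all genes). The ratio of *Atp2b4* to *Atp2b1*, another plasma membrane calcium pump, was 6.65 and 4.19 in wild type, 4.16 and 4.49 for *10xPerf*, and 4.11 and 1.92 for *10xBulge*. Both *10xBulge* libraries were below all others, by little in library 5, and the log2 difference from wild type was -0.91 (exact permutation p = 0.333, the smallest possible). The ratio was lower because *Atp2b1* had a larger rise (1.62) than *Atp2b4* (0.70), not because *Atp2b4* fell. *Atp2b1* was at 448.5 and 1317 in wild type, 1192 and 1235 for *10xPerf*, and 2172 and 2560 for *10xBulge*.

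**Figure D3:**
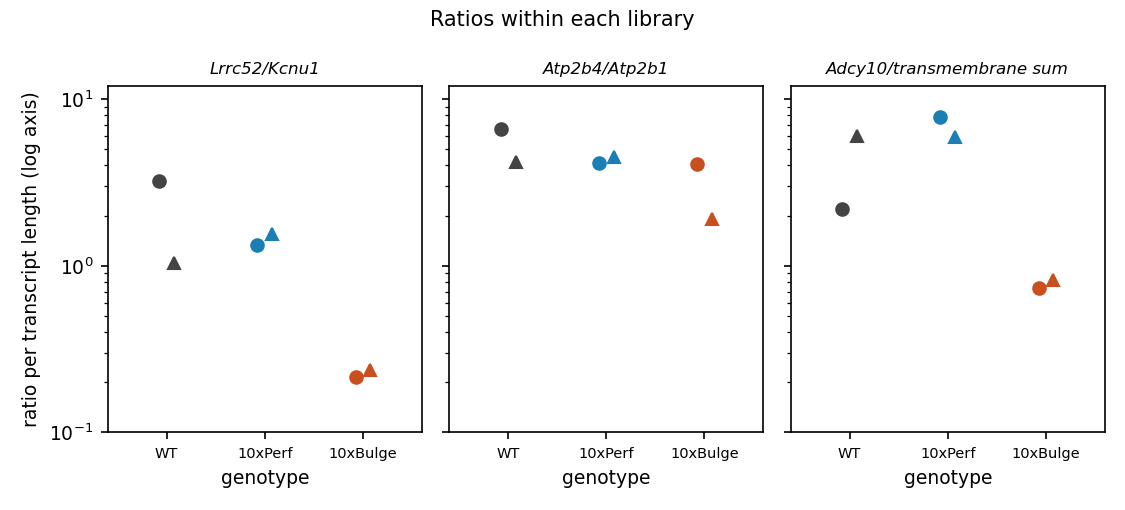
Ratios within each library, per transcript length, on a shared log axis: *Lrrc52* to *Kcnu1*, *Atp2b4* to *Atp2b1*, and *Adcy10* to the sum of the transmembrane adenylyl cyclases. Each point is 1 library. All 3 ratios are lower in both *10xBulge* libraries than in all others, at 0.214 and 0.236 for *Lrrc52*, 0.733 and 0.819 for *Adcy10*, and 4.11 and 1.92 for *Atp2b4*, whose next lowest library is at 4.16. The exact permutation p against wild type was 0.333 for each ratio, so no ratio passed a threshold. *Atp2b1* and the summed transmembrane cyclases were themselves higher in both *10xBulge* libraries than in all others.

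In *10xPerf* against wild type, none of the 9 genes was called lower or higher by limma, against backgrounds of 0.492% and 0.467% of all genes tested, and only *Slc9c1* had an unadjusted p under 0.05. Its log2 fold change was 1.24 (95% confidence interval 0.22 to 2.26, adjusted p = 0.644), and its *10xPerf* mean of 7346 ± 1200 (SD, n = 2) was 227% of the wild-type mean of 3234 ± 1340. All 9 log2 fold changes were above 0, as were 51.1% over all genes, with a median of 0.46 against 0.02. Of these directions, 3 turned when 1 wild-type library was left out. *Lrrc52* was at -0.30 without wild-type library 2, and *Slc9b1* and *Atp2b4* were at -0.13 and -0.07 without wild-type library 1. Without that library, *Kcnu1*, *Adcy10* and *Slc26a3* also fell, to 0.06, 0.07 and 0.19, while *Lrrc52* and *Atp1a4* rose to 0.53 and 0.28. *Atp1a4* differed by 0.23 (adjusted p = 0.903), and its wild-type and *10xPerf* libraries did not overlap.

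The wild-type libraries differed from each other in a way that moved several of the 9 genes together. Library 2 exceeded library 1 by 0.79 to 0.91 on the log2 scale in *Kcnu1*, *Slc9b1*, *Slc9c1*, *Atp2b4* and *Adcy10*, whose transcripts have a GC content of 39.3% to 47.8%. In the genes with GC contents of 50.1% to 54.7%, the difference was -0.83 (*Lrrc52*), -0.10 (*Atp1a4*) and 0.09 (*Hvcn1*). *Slc26a3*, with a GC content of 44.7%, differed by 2.87, but it was near the limit of detection. The cause of these differences was not tested. The ratio of library 1 to library 2 had a Spearman correlation of 0.615 with GC content across 12426 protein-coding genes, and genes are no independent replicates. The ratio of *10xBulge* library 5 to library 6 had one of 0.518, and that of *10xPerf* library 3 to library 4 one of -0.242. With each library's GC trend removed, the 5 genes lower in *10xBulge* were lower again, *Slc9c1* was added to them and *Hvcn1* was called higher.

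The last comparison, of *10xBulge* with *10xPerf*, sets the line with mismatched sites against the line with fully paired ones. It shares its *10xBulge* libraries with the first. The pairing of the sites cannot be told apart here from other differences between the lines or their mice. Here 6 of the 9 genes were lower, against a background of 24.1%, and 0 were higher by limma at the adjusted or at an unadjusted p under 0.05, against a background of 12.9%. *Slc9c1* joined the 5 genes lower against wild type, with a log2 fold change of -2.31 (adjusted p = 0.0046) and a mean of 20.6% of that in *10xPerf*. The others were *Atp1a4* (-6.80, adjusted p = 5.95e-06), *Lrrc52* (-5.35, 2.05e-05), *Kcnu1* (-2.71, 0.00112), *Adcy10* (-2.00, 0.00804) and *Slc9b1* (-1.36, 0.0402). The call of *Slc9b1* was lost without *10xPerf* library 3 (adjusted p = 0.172) or library 4 (0.186). *Hvcn1* (0.19), *Atp2b4* (0.33) and *Slc26a3* (-0.67) had confidence intervals that held 0, and the signs of *Hvcn1* and *Atp2b4* turned when *10xBulge* library 5 was left out (-0.12 and -0.10).

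**Figure D4:**
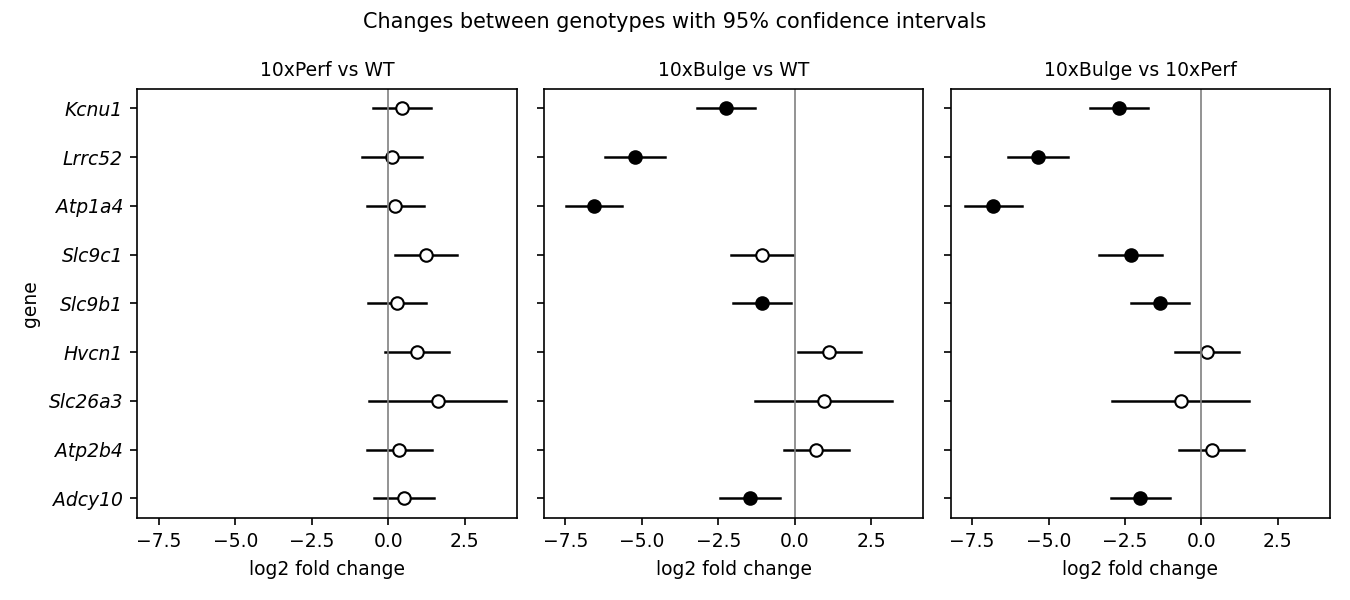
Log2 fold changes (x axis) of the 9 genes (y axis) in the 3 comparisons, with 95% confidence intervals from limma, n = 2 libraries per genotype. Filled points passed an adjusted p under 0.1. No point is filled for *10xPerf* against wild type, 5 are filled for *10xBulge* against wild type and 6 for *10xBulge* against *10xPerf*, all of them below 0.

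Relatives and partners of the 9 genes were taken from 8 lists with 69 genes, of which 67 were tested. In *10xBulge* against wild type, 15 were lower (22.4%, near the background of 23.0%), 13 were higher (19.4%, against 11.4%) and 39 passed in neither direction, with a median of 0.19. The 13 higher calls became 3 without wild-type library 1 and 8 without wild-type library 2. Against *10xPerf*, 17 were lower (25.4%, near the background of 24.1%) and 15 higher (22.4%, against 12.9%). These counts became 11 and 3 without *10xPerf* library 3, 11 and 6 without *10xPerf* library 4, and 9 higher without *10xBulge* library 5. Of the 23 genes that the rule for these lists picks, 9 were called in every alternative run and 14 were not called in at least 1.

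The calls in the single lists below are set against the same backgrounds of 23.0% lower and 11.4% higher. *Akap4*, the main anchor of protein kinase A in the sperm tail, was at 29960 and 59330 in wild type, 64460 and 83020 for *10xPerf*, and 345.9 and 196.5 for *10xBulge* (log2 fold change -7.33, limma adjusted p = 9.39e-06). *Ropn1*, which encodes a tail protein that binds such anchors, was lower by a log2 fold change of -5.72. Of the 11 genes for subunits and anchors of protein kinase A, 6 were lower (54.5%) and 2 higher (18.2%). The 2 that were higher were *Prkar2b* (1.53) and *Prkacb* (1.32), a regulatory and a catalytic subunit, whose calls were lost without wild-type library 1 (adjusted p = 0.158 and 0.1). Among 11 genes that degrade or sense cAMP, the phosphodiesterases *Pde4a* (-3.53) and *Pde1a* (-3.48) were lower, and *Pde4d* (1.18) was higher, a call lost without wild-type library 1 (adjusted p = 0.34), wild-type library 2 (0.108) or *10xBulge* library 5 (0.315), and also with the relaxed filter (0.112), with only the 2 genotypes compared (0.164) and with no mean-variance trend (0.121). Of 8 transmembrane cyclases tested, *Adcy1* was lower (-1.68, and adjusted p = 0.221 without wild-type library 1 and 0.128 without *10xBulge* library 6). *Adcy9* was higher (1.53, and adjusted p = 0.129, 0.119 and 0.136 without wild-type library 1, wild-type library 2 and *10xBulge* library 5).

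Among 9 genes tested for chloride and bicarbonate transport and its enzymes, 1 was lower and none higher by limma. It was *Car2*, a cytosolic carbonic anhydrase that makes bicarbonate and protons from CO2. Its levels were 7290 and 5675 in wild type, 5924 and 8070 for *10xPerf*, and 23.8 and 28.01 for *10xBulge*, and its log2 fold change was -7.91 (adjusted p = 4.39e-06). The fall of *Car2* was larger in size than that of any of the 9 genes. *Slc26a8*, a testis anion transporter, was at 7538 and 8394 in wild type and 7850 and 4178 in *10xBulge* (-0.47, adjusted p = 0.453), and *Cftr*, the chloride and bicarbonate channel, was at 635.1 and 912.6 and at 218.7 and 580.6 (-1.09, adjusted p = 0.155). *Slc26a8* and *Cftr* were named after their values were seen.

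Relatives of the potassium channel included both directions. *Lrrc26* and *Lrrc55*, which encode auxiliary subunits related to LRRC52, were lower (-4.94 and -4.28, adjusted p = 0.000419 and 0.00013). *Lrrc26* was at 122 and 71.08 in wild type and at 0.9176 and 3.915 in *10xBulge*. *Lrrc55* was at 136.2 and 144.8 in wild type and at 6.642 and 5.945 in *10xBulge*. Both were near the worth of a few reads in *10xBulge*, so their fitted fold changes depend on the pseudocount. *Kcnma1*, which encodes the related channel SLO1, was at 198.9 and 269.2 in wild type and 622.5 and 597.1 in *10xBulge* (1.39, adjusted p = 0.0315, and 0.155 without wild-type library 1). *Lrrc38*, a further auxiliary subunit, was the only pathway gene called in *10xPerf* against wild type (limma adjusted p = 0.0238). It was at 33.73 and 47.58 in wild type, 1.973 and 0 for *10xPerf*, and 157 and 104.4 for *10xBulge*. Its *10xPerf* libraries were under the worth of 3 reads. The call was lost in each fit that left out a wild-type or *10xPerf* library, with adjusted p-values of 0.306 and 0.315 without wild-type libraries 1 and 2 and of 0.146 and 0.253 without *10xPerf* libraries 3 and 4, and also with a pseudocount of 0.1 (adjusted p = 0.191).

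The other pumps and exchangers mostly passed no threshold or were higher. Of 6 other subunits of the Na+/K+-ATPase, 3 were higher, among them the beta subunit *Atp1b2* (1.43, adjusted p = 0.0253). The beta subunit *Atp1b3*, at 13620 and 11360 in wild type and 5065 and 5899 in *10xBulge*, was lower (-1.19, adjusted p = 0.051, and 0.167 without wild-type library 1, 0.116 without *10xBulge* library 5, 0.101 with library totals and 0.1 with only the 2 genotypes compared). Of 9 relatives of the sodium/proton exchangers, 3 were higher and none lower by limma, among them *Slc9a9*, an intracellular exchanger, at 64.15 and 62.27 in wild type and 271 and 199.8 in *10xBulge* (1.86, adjusted p = 0.0158).

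Of 7 other calcium pumps, 2 were lower and 2 higher (28.6% each, where the background is 23.0% and 11.4%). *Atp2c2*, a secretory pathway pump, was lower (-2.55, adjusted p = 0.0209, and 0.174 without wild-type library 1), and so was *Atp2b2*, a plasma membrane pump (-2.45, adjusted p = 0.0428). The call of *Atp2b2* was lost without wild-type library 1 (0.283), wild-type library 2 (0.101) or *10xBulge* library 6 (0.144), or with only the 2 genotypes compared (0.124). Counts of the 2 lower genes were low and spread widely in *10xBulge*. *Atp2c2* was at 104.8 and 68.79 in wild type and 26.43 and 6.856 in *10xBulge*, and *Atp2b2* at 131.9 and 64.78 and at 37.31 and 6.649. *Atp2b1* (1.62) and the endoplasmic reticulum pump *Atp2a2* (1.57) were higher. Both calls were lost without wild-type library 1 (0.236 and 0.133), and that of *Atp2b1* also without *10xBulge* library 6 (0.102) and with only the 2 genotypes compared (0.123).

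**Figure D5:**
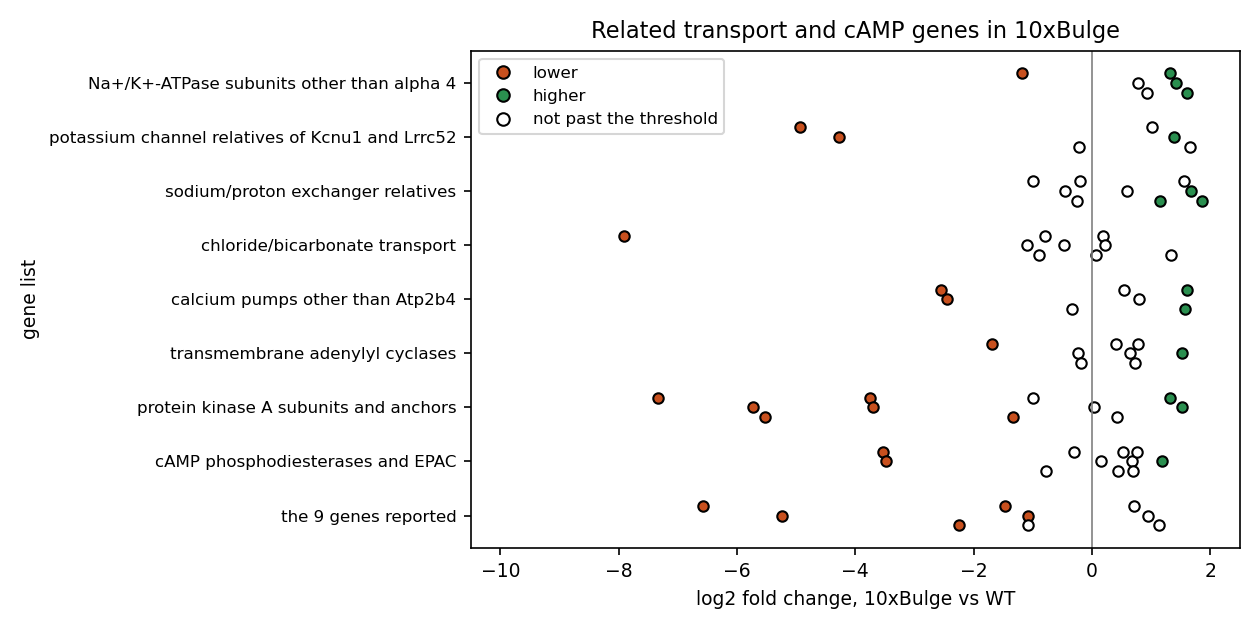
Log2 fold changes of *10xBulge* against wild type (x axis) for the tested genes of 8 related lists and for the 9 genes reported (y axis), 1 point per gene, coloured by call at an adjusted p under 0.1 and open where not past it. Of 67 listed genes, 15 were lower and 13 higher, and the falls reach -7.91 (*Car2*).

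The gene with the profile closest to each of the 9 was found among 15013 protein-coding genes, as the Euclidean distance of centred log2 values over the 6 libraries. *Kcnu1* was closest to *Ttc39d* (0.141) and *Lrrc52* to *Slc22a14* (0.177), which encodes a transporter of the SLC22 family. *Slc22a14* was at 11670 and 6150 in wild type, 9044 and 8800 for *10xPerf*, and 243 and 193.8 for *10xBulge*, the same order of libraries within wild type and *10xBulge* as in *Lrrc52*. *Atp1a4* was closest to *Gzmn* (0.255), which encodes granzyme N and fell from 642.5 and 578.6 in wild type to 7.007 and 4.868 in *10xBulge*. *Adcy10* was closest to *Uri1* (0.232), *Slc9b1* to *Stpg2* (0.237), a gene for a sperm tail protein, and *Slc9c1* to *Rpgrip1* (0.361). *Hvcn1* was closest to *Mrm3* (0.346) and *Atp2b4* to *Zfp207* (0.119). *Slc26a3*, the gene with the lowest counts, had no close profile (0.973, *Pms1*). The points of these distances share the libraries, their depth and their GC trends.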

How the data were processed

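Total RNA from testes of adult mice was depleted of ribosomal RNA and sequenced as strand-specific, single-end libraries, 2 per genotype. The authors assigned reads to GRCm39 and Ensembl transcripts with salmon, with its GC correction, and scaled them with DESeq2. The versions of salmon and DESeq2 are not given in the sources used here. The deposited values are thus normalized counts (a signal, not reads). Only 19.4% of the genes above 0 were whole multiples of 1 read in every library (tolerance 0.01), so reads were not recovered and count tests were not run. The table also holds log2 fold changes and p-values of the authors' own comparisons, which were not used. The 20 immunoprecipitation libraries were not analysed here.

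A gene was tested if 2 or more libraries reached 10 normalized counts. A limma model (3.58.1, R 4.3.3) of log2(value + 1) held all 6 libraries, the genotype as its term, and a trend of variance on mean. P-values were adjusted by Benjamini-Hochberg over all genes tested, and an adjusted p under 0.1 was called. Fold changes are those of log2(value + 1), so changes of low genes are understated. The scripts were tested on simulated data. The 9 genes and all gene lists were chosen with earlier results of these data known, and the lists adjust nothing. Named are the 9 genes, the protein-coding gene (mean of at least 50) with the closest profile to each, and per list and direction up to 2 genes past the threshold with the largest change. Of the genes this rule picks, 2 are not reported here. Ratios within a library were compared by exact permutation tests over libraries. The ratios were not among the planned results and serve as descriptions. Levels per kb use the longest protein-coding GENCODE M21 transcript. Python 3.11.15 and scipy 1.17.1 were used. The alternatives were other scalings, filters, thresholds and pseudocounts, a fit of only the genotypes compared, no trend, and leaving out each library. The removal of the loess trend on GC content (span 0.3) from every library was chosen after seeing the data.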

Additional observations from a re-analysis of the deposited data

How the results depend on the processing

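Of 375 log2 fold changes of the 9 genes recomputed under the alternatives, 349 kept their direction and their side of the threshold, 10 lost a call, 9 gained one and 7 changed sign. No call changed sign within its own comparison. In *10xBulge* against wild type, the 5 genes lower became 3 to 5 when a library was left out, with the fewest, 3, without wild-type library 2. It was 4 at an adjusted p under 0.05, with library totals, with the filter relaxed to a value of 1 in 1 library, with only the 2 genotypes compared and with no mean-variance trend, and 6 with the GC trend removed. The count of genes higher, 0, became 2 with library totals, 1 with the upper quartile, 1 with a trimmed mean of log ratios, 1 with a pseudocount of 10, 1 with the GC trend removed (chosen after seeing the data), and 0 to 1 when a library was left out. The signs that turned, all in fits without 1 library, were in *10xPerf* against wild type those of *Lrrc52* (-0.30 to 0.53), *Slc9b1* (-0.13 to 0.70) and *Atp2b4* (-0.074 to 0.81), in *10xBulge* against wild type that of *Slc26a3* (-0.48 to 2.38), and in *10xBulge* against *10xPerf* those of *Hvcn1* (-0.12 to 0.49, and -0.04 without *10xPerf* library 3) and *Atp2b4* (-0.10 to 0.77). The cause was not tested. *Atp1a4*, *Lrrc52* and *Kcnu1* were called in every alternative of both comparisons with *10xBulge*. Over all genes, leaving out a library gave 636 to 2858 higher calls in *10xBulge* against wild type, where all 6 libraries gave 2712, and 418 to 3286 against *10xPerf*, where they gave 3077. In *10xPerf* against wild type it gave 10 to 27 lower and 11 to 31 higher calls, in place of 117 and 111. The other alternatives gave 53 to 190 lower and 40 to 214 higher calls there, 2926 to 5784 and 1370 to 5777 in *10xBulge* against wild type, and 3064 to 5884 and 1725 to 5108 against *10xPerf*, in place of 5729 and 3077. Library totals gave 5777 higher and 4792 lower calls in *10xBulge* against wild type in place of 2712 and 5466, and a higher share of 49.5% in place of 34.9% against *10xPerf*. They moved the median of all genes to 0.35, 0.18 and 0.15 in *10xBulge* against wild type, *10xBulge* against *10xPerf* and *10xPerf* against wild type. A filter of 10 in every library removed *Slc26a3*, so it has no value there. No paired analysis was possible because the library numbers differ between the genotypes. With 2 libraries per genotype, small changes can be missed.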
